A study of Mus musculus with 12 samples.

Results

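Fc receptors and complement proteins let macrophages handle targets marked by antibody. The 10 genes described here were listed by symbol, with no threshold on their values, when earlier results of these data were known. They are the IgG receptor genes Fcgr1, Fcgr2b, Fcgr3 and Fcgr4, the receptor signalling chain Fcer1g, the C1q chain genes C1qa, C1qb and C1qc, the complement component C3, and Cfp, which encodes properdin. They are 10 of the 16145 genes listed in at least 1 library, and all 10 were listed in all 12 libraries and passed the filter on low counts. RNA was measured by sequencing in bone marrow-derived macrophages, cells grown from mouse marrow for 7 days with M-CSF, a macrophage growth factor.

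The 12 libraries form 4 groups of 3, each of M-CSF-grown marrow cells. Cells of WT (wild-type) mice received vehicle for 12 h, 120 µM 4-OI for 15 h, or 15 µM hemin for 12 h. Cells of Irg1KO mice received vehicle for 12 h. 4-OI is 4-octyl itaconate, a cell-permeable ester of the metabolite itaconate. Hemin is the oxidised form of heme. Irg1 is a former symbol of Acod1, whose product synthesises itaconate. The labels give no strain, age, sex or form of the Irg1 allele, and no vehicle group at 15 h, so the 3 h longer exposure and 4-OI itself cannot be told apart. They also do not say whether replicates came from separate mice or cultures, so that the p-values speak for the spread among these 3 libraries a group alone, which may be technical.

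An activating IgG receptor binds the Fc part of antibody and signals through the ITAM, a tyrosine motif, in the FcRγ chain that Fcer1g encodes. In the mouse, Fcgr1, Fcgr3 and Fcgr4 encode such receptors, while Fcgr2b encodes the inhibitory receptor, whose ITIM motif recruits phosphatases. C1q is assembled from A, B and C chains, binds antibody complexes and dying cells, and starts the classical complement pathway. C3 is the protein at which the complement pathways meet, and properdin stabilises the alternative pathway enzyme that cleaves it. Macrophages are a main source of C1q in the body, whereas most plasma C3 comes from the liver.

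Library totals were 9405112 to 22390882 expected counts, the estimated reads or fragments per gene. The macrophage identity of the cultures was checked with 10 markers, among them Csf1r, Adgre1, Cd68 and Lyz2, all of which were present. Their summed level was 22764 to 26625 CPM over the 12 libraries, where CPM is the count scaled to a library size that TMM made comparable between libraries. Acod1, the gene that the Irg1KO label names, had 27.5, 30.5 and 25.0 CPM with wild-type vehicle and 21.7, 13.6 and 26.3 CPM in the libraries labelled Irg1KO. The groups overlapped, and the difference did not pass the test (log2 fold change -0.48, SE 0.26, edgeR quasi-likelihood adjusted p = 0.194). The knockout is thus not visible in gene-level counts, and that group is called knockout-labelled below, also where a direction is drawn from it. Reads outside a deleted part would count in the same way, and this was not tested.

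Markers of fibroblasts and stromal cells, 10 of 10 of them listed, summed to 10286 to 11529 CPM in the knockout-labelled libraries. The same sum was 1705 to 2101 CPM with wild-type vehicle, 1934 to 2134 with 4-OI and 1555 to 2033 with hemin, and Dcn and Lum were at 0 with 4-OI. Of the 10 neutrophil markers 9 were listed, summing to 84.0 to 94.6 CPM with vehicle, 41.6 to 46.0 in the knockout-labelled libraries, 339 to 361 with 4-OI and 95.3 to 105 with hemin. Ly6g, the defining neutrophil surface marker, was at 0 in all 4 groups. Endothelial markers, 5 of 5 listed, summed to 34.3 to 39.2, 29.6 to 32.9, 8.59 to 9.98 and 16.4 to 17.9 CPM in the same order of groups. Most of this sum was Kdr, with means of 28.6, 25.0, 4.98 and 11.1 CPM in that order. Of the 4 tested, Kdr and Cdh5 fell with 4-OI (log2 fold change -2.52 and -1.45). Pecam1 and Emcn, at 0.13 and 0.48, did not pass the test. B cell markers (3 of 5 listed, Pax5 at 0 throughout) summed to at most 1.86 CPM in any library. The highest sums for T and NK cells (3 of 5 listed, Cd3e at 0), mast cells and basophils (5 of 5) and dendritic cells (4 of 5, Siglech at 0) were 0.216, 3.83 and 2.10 CPM. In bulk RNA, fewer cells of a type and less RNA per cell cannot be told apart.

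The sequences below belong to neighbouring genes that moved apart with 4-OI (Fcgr2b and Fcgr3) or fell together (C1qb and C1qc). In the RefSeq annotation of GRCm38.p6, Fcgr2b, Fcgr4 and Fcgr3 are consecutive genes on chromosome 1, and C1qb, C1qc and C1qa are consecutive on chromosome 4. The authors' build is GRCm39, so these coordinates belong to GRCm38.p6 alone. The first pair is the 250 bases before the start of the inhibitory receptor gene, chr1:170976072-170976321 (minus strand), and of the activating receptor gene Fcgr3, chr1:171059404-171059653 (minus strand). The table lists 2 starts for Fcgr3, and the window before the first listed is the one shown and searched. The second pair is the same stretch of C1qb, chr4:136886201-136886450 (minus strand), and C1qc, chr4:136892915-136893164 (minus strand). Capitals mark the letters GAGGAA on either strand, the core bound by PU.1, the macrophage transcription factor that Spi1 encodes.
Fcgr2b: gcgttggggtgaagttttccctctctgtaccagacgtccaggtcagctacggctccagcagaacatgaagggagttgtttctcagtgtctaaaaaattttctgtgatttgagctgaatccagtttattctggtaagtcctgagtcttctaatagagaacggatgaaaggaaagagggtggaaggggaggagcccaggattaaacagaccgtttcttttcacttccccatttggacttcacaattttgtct
Fcgr3: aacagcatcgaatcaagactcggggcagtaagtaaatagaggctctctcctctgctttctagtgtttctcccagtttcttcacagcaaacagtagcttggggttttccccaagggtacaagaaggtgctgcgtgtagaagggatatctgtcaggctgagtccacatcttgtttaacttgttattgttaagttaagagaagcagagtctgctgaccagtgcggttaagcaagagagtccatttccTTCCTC
C1qb: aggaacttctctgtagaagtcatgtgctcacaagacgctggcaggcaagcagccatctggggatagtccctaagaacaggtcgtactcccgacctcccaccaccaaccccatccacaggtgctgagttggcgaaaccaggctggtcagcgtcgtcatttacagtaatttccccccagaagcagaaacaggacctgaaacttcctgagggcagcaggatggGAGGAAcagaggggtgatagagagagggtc
C1qc: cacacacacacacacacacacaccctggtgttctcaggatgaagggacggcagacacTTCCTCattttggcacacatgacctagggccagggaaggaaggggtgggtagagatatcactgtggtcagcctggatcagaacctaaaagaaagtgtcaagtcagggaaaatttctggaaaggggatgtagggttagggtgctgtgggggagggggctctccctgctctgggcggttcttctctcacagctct

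GAGGAA, read on both strands, was present in this window of 5 of the 9 genes with an entry, namely Fcgr1, Fcgr3, Fcgr4, C1qb and C1qc. It was also present in 23.1% of the 27025 windows of the same length, 1 for each gene in the table. In Fcgr3 the match ended at the last base before that start, its far end lying 6 bases before it, and in C1qb it began 30 bases before the start. GAAA, any 2 bases and GAAA again, the core of the interferon-stimulated response element, were found in Fcgr4 and in 3.04% of all windows. The STAT letters TTCNNNGAA were found in Fcgr1 and in 7.18% of all windows. The MAF half-site TGCTGA was found in Fcgr3, C1qb and C3 and in 15.8% of all windows. Each was searched on both strands, matches to different letters did not overlap in these 9 genes, and a match is a description of letters only.

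Fcgr2b and Fcgr3 are near-identical over part of their coding sequence, in the extracellular part, and this stretch is shown because it bears on how their reads can be assigned. Their longest shared run is 129 bases, at coding positions 278 to 406 of Fcgr2b and 263 to 391 of Fcgr3 in the GRCm38 annotation.
Fcgr2b and Fcgr3: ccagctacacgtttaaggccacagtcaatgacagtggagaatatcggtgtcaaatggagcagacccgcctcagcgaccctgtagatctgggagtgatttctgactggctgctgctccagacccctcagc
Of the 971 windows of 50 bases in the Fcgr2b coding sequence, 166 (17.1%) occur in Fcgr3 too. No such window was shared by the other receptor pairs, whose longest common runs were 9 to 14 bases, and the C1q chains shared runs of 11 to 15 bases at most. RSEM divides reads that fit several genes, which gives counts that are not whole. In 11 of 12 libraries the counts of all 10 genes were whole, and in 4-OI replicate 2 Fcgr2b had 1687.07 and Fcgr3 9576.93. Values of this pair are uncertain to the extent that reads from the shared stretch were assigned to either gene.

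Levels between genes are compared on FPKM, the count scaled to transcript length and library total. In wild-type vehicle cells the C1q chains led, with C1qc at 1478 ± 87.9, C1qb at 1462 ± 67.6 and C1qa at 1252 ± 65.4 FPKM (SD, n = 3). They held ranks 20, 21 and 25 among all genes. C1qc and C1qb did not differ beyond their spread, while the highest C1qa library, at 1310 FPKM, lay below the lowest C1qb library, at 1398. Fcer1g followed at 967.9 ± 39.6 FPKM (rank 43), then Fcgr3 at 344.8 ± 11.2 and Cfp at 300.3 ± 13.3 FPKM. Of the receptors, Fcgr2b stood at 176.7 ± 5.18, Fcgr1 at 100.2 ± 5.44 and Fcgr4 at 34.4 ± 1.33 FPKM. C3 was the lowest of the 10 at 9.22 ± 0.785 FPKM (rank 6280). From C1qa down, each gene's lowest library lay above the highest library of the next.

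In 4-OI libraries this order changed at the top. C1qb at 931.1 ± 26.7, C1qc at 894.6 ± 17.9 and Fcer1g at 889.8 ± 56.5 FPKM (SD, n = 3) lay within reach of each other's spread. C1qa stood at 588.1 ± 13.8 FPKM (rank 110) and Fcgr3 at 492.7 ± 5.82 FPKM. Fcgr2b, at 84.6 ± 5.29 FPKM, was still above Fcgr1, at 72.0 ± 1.89 FPKM. The C1q genes together held 0.394 to 0.412% of all counts with vehicle, 0.348 to 0.361% in the knockout-labelled libraries, 0.230 to 0.234% with 4-OI and 0.350 to 0.369% with hemin.

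**Figure D1:**
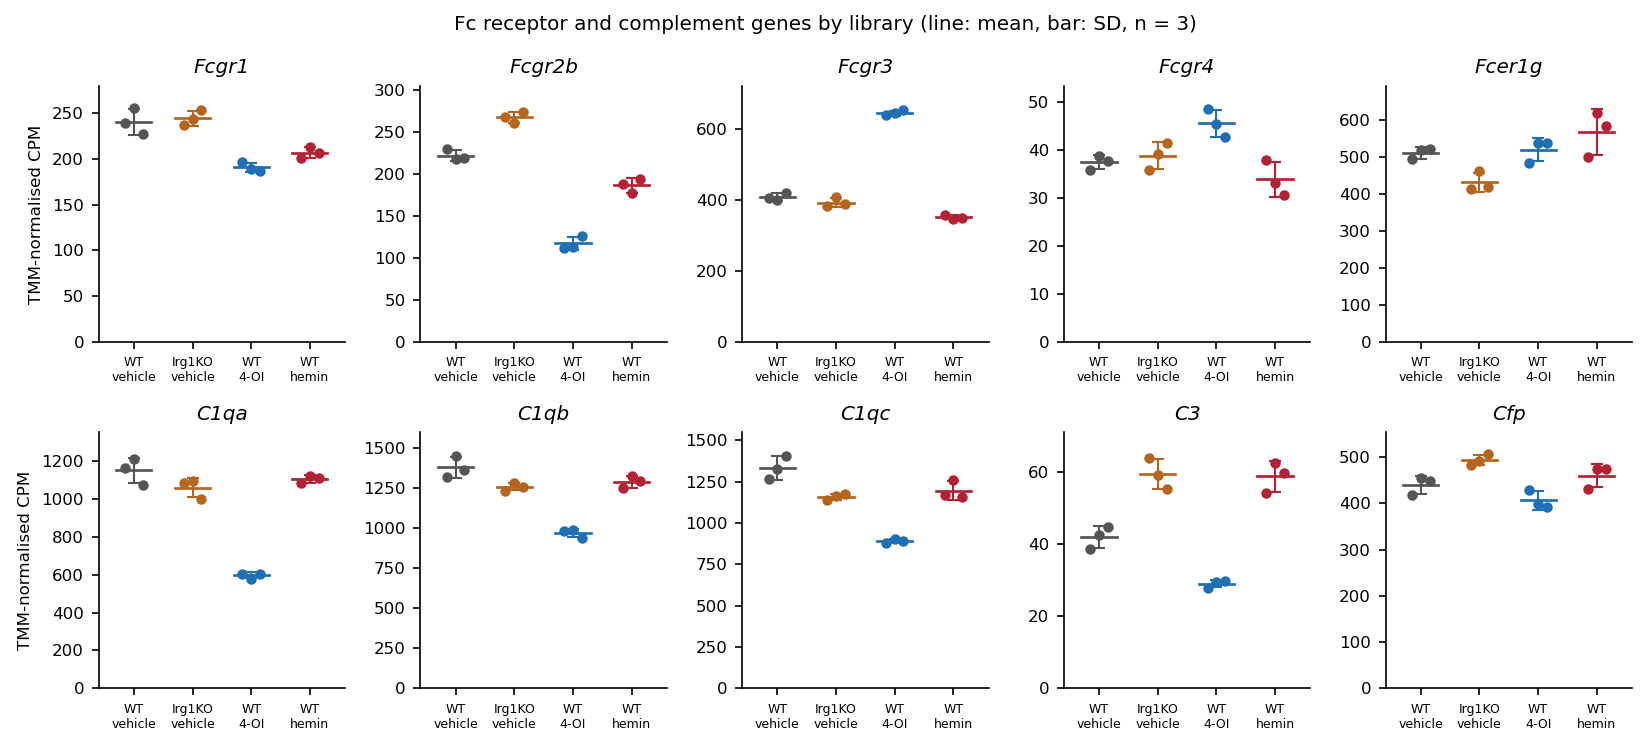
TMM-normalised CPM (linear axes from 0) of the 10 genes in the 12 libraries, by group; points are libraries, lines are means and bars are SD (n = 3). Fcgr3 is higher and Fcgr2b, C1qa, C1qb and C1qc are lower in all 3 4-OI libraries than in any other library, and C3 is high in the knockout-labelled and hemin libraries.

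The 4 comparisons asked what differs between genotypes and between each treatment and vehicle, and between the treatments. They were tested with edgeR's quasi-likelihood test in 1 fit, and calls were made where the Benjamini-Hochberg adjusted p, taken over the 12148 genes tested, was below 0.05. With 4-OI against wild-type vehicle, 8 of the 10 genes were called, 2 higher and 6 lower, where 50.4% of all genes tested were called. In the knockout-labelled libraries 6 of 10 were called, 3 higher and 3 lower, against 39.8% of all genes. With hemin 5 of 10 were called, 1 higher and 4 lower, against 17.2% of all genes. Between 4-OI and hemin 8 of 10 were called, 2 higher and 6 lower with 4-OI, against 42.3% of all genes. The median log2 fold change of all genes tested lay between -0.0060 and 0.0015 in these comparisons. Separation of the libraries gave similar counts. The CPM of the compared groups did not overlap for 8 of 10 genes with 4-OI (2 higher, 6 lower), where 56.5% of all genes tested did not overlap (28.2% higher, 28.3% lower). In the knockout-labelled libraries this held for 6 genes (3 higher, 3 lower) against 49.7% of all (27.3% higher, 22.4% lower). With hemin it held for 5 (1 higher, 4 lower) against 30.7% (15.7% higher, 14.9% lower), and between 4-OI and hemin for 9 (2 higher, 7 lower) against 49.8% (24.6% higher, 25.2% lower). The shares called in each direction were 25.4% higher and 25% lower with 4-OI, 23.5% and 16.3% in the knockout-labelled libraries, 9.48% and 7.74% with hemin, and 20.6% and 21.7% between the treatments. The 3 comparisons with wild-type vehicle share its 3 libraries, so their results are not independent.

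On the FPKM scale, which divides by the library total, the median of all genes moved by -0.11 with 4-OI (log2, pseudocount 1), and fold changes on it are to be read relative to that shift. There the genes called split into 1743 higher and 4608 lower with 4-OI, in place of 3083 and 3043. For hemin the split was 621 and 1422 in place of 1152 and 940, and for 4-OI against hemin 1726 and 3490 in place of 2500 and 2636. Of the 10 genes, 1 was higher and 7 lower with 4-OI on that scale.

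**Figure D2:**
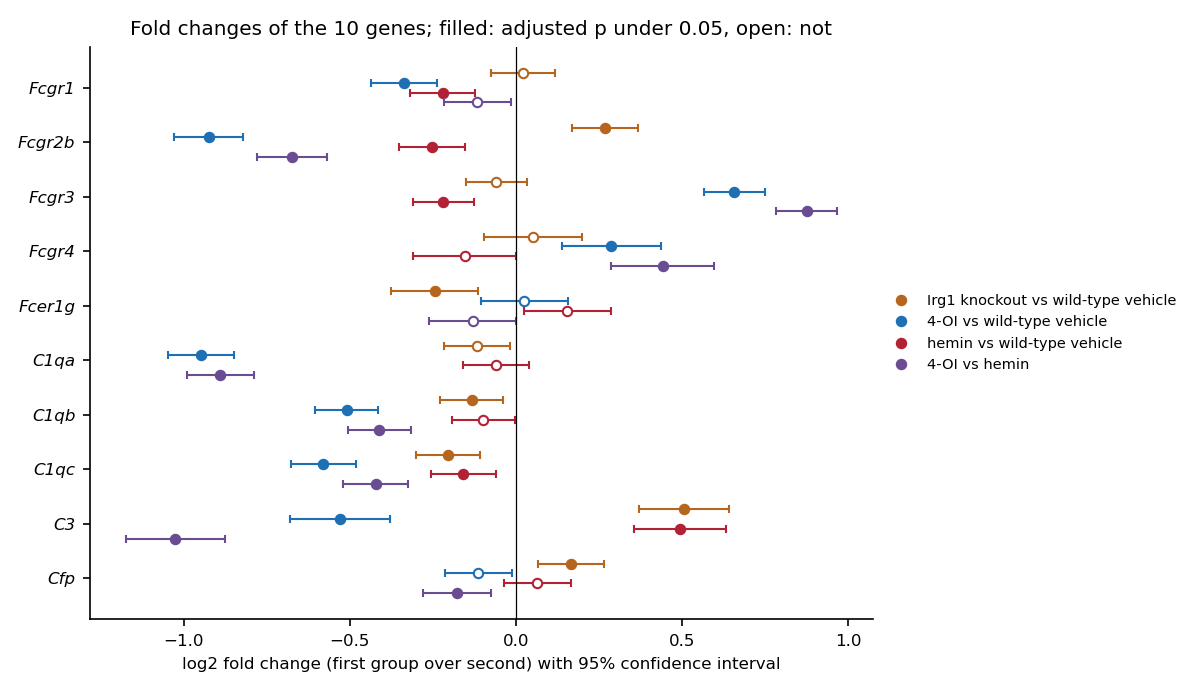
Log2 fold changes (horizontal axis) of the 10 genes with 95% confidence intervals in the 4 comparisons; filled points have an adjusted p under 0.05 and open points do not. With 4-OI against vehicle Fcgr3 lies at 0.66 while Fcgr2b lies at -0.92 and C1qa at -0.95.

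Among the activating receptors, Fcgr3 rose with 4-OI and Fcgr1 fell, so the receptors that share the FcRγ chain did not move together. Fcgr3 encodes the low-affinity receptor for IgG complexes. It measured 406.0, 399.3 and 419.8 CPM with vehicle and 637.6, 643.0 and 651.7 CPM with 4-OI. It also measured 381.7, 406.6 and 387.2 CPM in the knockout-labelled libraries and 358.1, 346.3 and 348.7 CPM with hemin. The 4-OI libraries were all above the rest and the hemin libraries all below the rest, while knockout-labelled and vehicle libraries overlapped. The rise with 4-OI was 1.58-fold (log2 fold change 0.66, SE 0.045, adjusted p = 2.89e-15, edgeR). The fall with hemin was to 0.860 of vehicle (log2 -0.22, SE 0.045, adjusted p = 0.000488), and 4-OI exceeded hemin 1.84-fold (adjusted p = 2.47e-18). In the knockout-labelled libraries the difference was -0.06 (95% interval -0.15 to 0.03, adjusted p = 0.316).

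Fcgr1 encodes the high-affinity receptor, which can bind single IgG molecules. It measured 239.4, 255.4 and 226.7 CPM with vehicle, 196.1, 189.3 and 186.4 with 4-OI and 200.5, 212.9 and 206.4 with hemin. Both treated groups lay below every vehicle library. Fcgr1 fell by 0.34 on the log2 scale with 4-OI (SE 0.049, adjusted p = 3.24e-07) and by 0.22 with hemin (SE 0.049, adjusted p = 0.00103). All 4-OI libraries were below all hemin libraries, but that difference did not pass the test (-0.12, 95% interval -0.22 to -0.02, adjusted p = 0.0568); it passed with upper-quartile scaling (adjusted p = 0.0231). In the knockout-labelled libraries, at 237.1, 243.3 and 253.2 CPM, the difference was 0.02 (95% interval -0.08 to 0.12), and its sign turned with RLE scaling, DESeq2, FPKM and no filter.

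Fcgr4, a mouse receptor of intermediate affinity, was the least abundant of them. It measured 35.8, 38.7 and 37.6 CPM with vehicle, 35.8, 39.1 and 41.5 in the knockout-labelled libraries, 48.4, 45.3 and 42.7 with 4-OI and 37.9, 33.0 and 30.7 with hemin. The 4-OI libraries were above all others, and the remaining groups overlapped. Fcgr4 rose by 0.29 with 4-OI on the log2 scale (SE 0.073, adjusted p = 0.00124), but on log2(FPKM + 1) the value was 0.14 with adjusted p = 0.138. Against hemin, 4-OI was higher by 0.44 (SE 0.077, adjusted p = 1.16e-05). The difference with hemin was -0.15 (95% interval -0.31 to 0.00033, adjusted p = 0.175), and without hemin replicate 1 it was -0.23 (adjusted p = 0.0412).

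The neutrophil marker sum was higher with 4-OI beside Fcgr3 and Fcgr4, which neutrophils also express. Most of it came from Mmp8, at 312.9 CPM with 4-OI and 79.5 with vehicle, and S100a8, at 31.2 and 2.39 CPM, both named after their values were seen. Only these 2 of the 5 tested neutrophil markers rose, and Ly6g was at 0. The part of such cells in the receptor values was not tested.

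Fcgr2b, the inhibitory receptor, moved in all 3 comparisons with vehicle. It measured 228.8, 217.4 and 218.4 CPM with vehicle, 267.8, 260.0 and 273.0 in the knockout-labelled libraries, 112.1, 113.3 and 125.7 with 4-OI and 187.7, 176.7 and 193.8 with hemin. No 2 of these groups overlapped. With 4-OI it fell to 0.527 of vehicle (log2 -0.92, SE 0.051, adjusted p = 7.55e-18), and it fell by 0.25 with hemin (SE 0.049, adjusted p = 0.000241). It was 1.20-fold higher in the knockout-labelled libraries (log2 0.27, SE 0.048, adjusted p = 1.98e-05). Between the treatments, 4-OI was lower by 0.67 (95% interval of the fold change -0.78 to -0.57, adjusted p = 1.86e-13). Fcgr2b is also the IgG receptor of B cells, whose defining marker Pax5 was at 0. The B cell marker Cd79b, the only one of that list tested, had 1.39 ± 0.417 CPM with vehicle and 0.608 ± 0.124 CPM with 4-OI (SD, n = 3). Cd79b fell with 4-OI against vehicle (log2 -1.27, SE 0.34, edgeR adjusted p = 0.00228) and was lower with 4-OI than with hemin (-1.10, adjusted p = 0.0158). It did not pass in the knockout-labelled libraries (-0.32, adjusted p = 0.407), where Fcgr2b rose. Nor did it pass with hemin (-0.17, adjusted p = 0.771), where Fcgr2b fell. The part of B cells in the Fcgr2b values was not tested.

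The balance of the receptors within each library is a description, with no test. The sum of the activating receptors was 475.6 to 486.6 FPKM with vehicle, 446.6 to 471.9 in the knockout-labelled libraries, 600.7 to 603.7 with 4-OI and 389.9 to 403.6 with hemin. Divided by Fcgr2b, it gave 2.72 ± 0.0946 with vehicle, 2.19 ± 0.102 in the knockout-labelled libraries, 7.14 ± 0.420 with 4-OI and 2.79 ± 0.139 with hemin (SD, n = 3). The 4-OI ratios, 6.66 to 7.42, were above all others, and the knockout-labelled ratios, 2.12 to 2.31, were below all others, while hemin and vehicle overlapped. Fcgr3 made most of the activating sum in each group, so its ratio to Fcgr2b followed the same order, from 1.55 ± 0.0857 in the knockout-labelled libraries to 5.83 ± 0.299 with 4-OI.

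Fcer1g, the shared signalling chain, did not follow the receptors. It measured 492.7, 517.2 and 520.5 CPM with vehicle, 413.9, 460.6 and 416.9 in the knockout-labelled libraries, 483.7, 537.0 and 536.5 with 4-OI and 499.2, 618.4 and 584.3 with hemin. The knockout-labelled libraries were below all others, and the other groups overlapped. It fell by 0.24 on the log2 scale in the knockout-labelled libraries (SE 0.063, adjusted p = 0.0032). With 4-OI the difference was 0.02 (95% interval -0.11 to 0.16, adjusted p = 0.775), and its sign turned with upper-quartile scaling and FPKM. With hemin it was 0.15 (SE 0.063, adjusted p = 0.0991), and without hemin replicate 1 it was 0.24 with adjusted p = 0.00162. Replicate 1 was the lowest Fcer1g library in every group, vehicle included, and that setting left out the hemin one alone. Left unfiltered for low counts, Fcer1g passed for hemin too (adjusted p = 0.0149). Per unit of receptor, Fcer1g over the sum of Fcgr1, Fcgr3 and Fcgr4 was 2.02 ± 0.0650 with vehicle, 1.76 ± 0.0572 in the knockout-labelled libraries, 1.48 ± 0.0896 with 4-OI and 2.62 ± 0.332 with hemin (ratio of FPKM, SD, n = 3). No 2 of these groups overlapped.

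**Figure D3:**
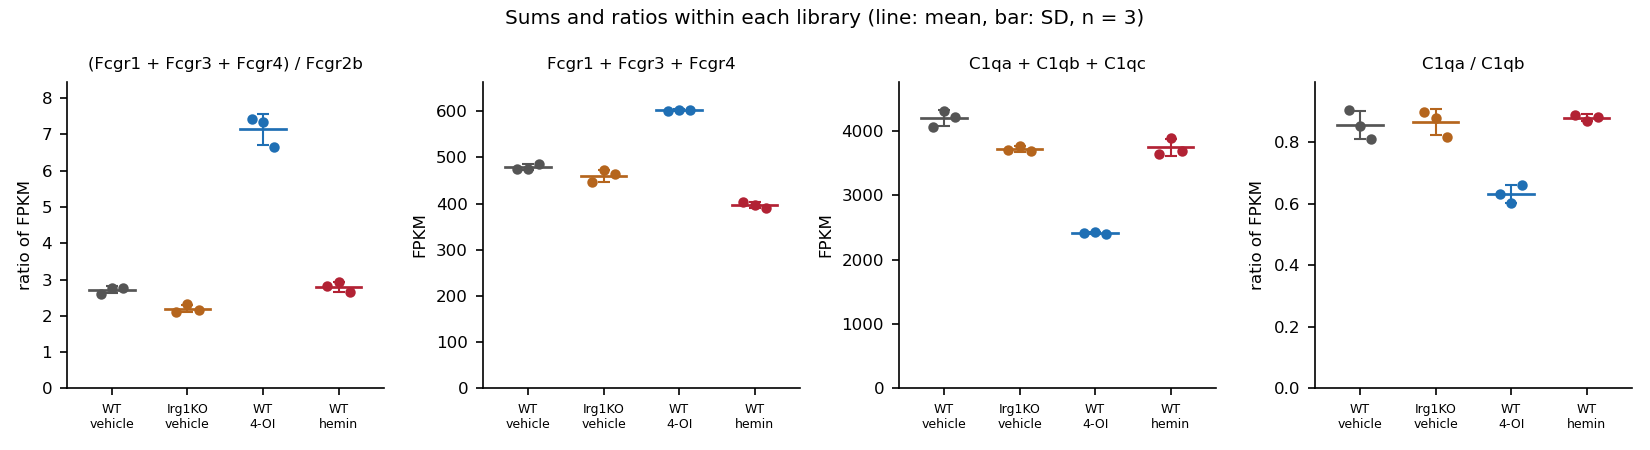
Ratios (of FPKM) and sums (in FPKM) within each library by group, on linear axes from 0; points are libraries, lines are means and bars are SD (n = 3). The ratio of activating receptors to Fcgr2b is 6.66 to 7.42 with 4-OI and 2.12 to 2.92 elsewhere, and C1qa over C1qb is 0.602 to 0.663 with 4-OI and 0.811 to 0.904 elsewhere.

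All 3 C1q chain genes fell with 4-OI, C1qa by the most. C1qa measured 1166, 1212 and 1077 CPM with vehicle and 606.1, 578.7 and 606.7 CPM with 4-OI. It fell to 0.518 of vehicle (log2 -0.95, SE 0.050, adjusted p = 1.52e-18). C1qb measured 1320.0, 1451 and 1360.0 CPM with vehicle and 981.8, 984.3 and 937.1 CPM with 4-OI. It fell to 0.703 of vehicle (log2 -0.51, SE 0.047, adjusted p = 1.23e-11). C1qc, at 1267, 1327 and 1407 CPM with vehicle, measured 876.9, 906.0 and 893.2 CPM with 4-OI. It fell to 0.669 of vehicle (log2 -0.58, SE 0.048, adjusted p = 7.12e-13). For each chain all 4-OI libraries were below all 9 others.

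The chains did not keep their ratio with 4-OI. C1qa made 29.9 ± 1.61% of the summed C1q FPKM with vehicle, 30.6 ± 1.17% in the knockout-labelled libraries, 30.9 ± 0.508% with hemin and 24.4 ± 0.771% with 4-OI (SD, n = 3). C1qa over C1qb was 0.857 ± 0.0464 with vehicle and 0.632 ± 0.0305 with 4-OI, with no overlap. C1qc over C1qb was 1.01 ± 0.0638 and 0.961 ± 0.0312, and there the groups overlapped. These ratios are descriptions, and their difference was not tested.

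In the other groups the C1q genes stood at 0.869 to 0.960 of vehicle. The knockout-labelled libraries measured 1083, 1098 and 1003 CPM for C1qa, 1233, 1277 and 1257 CPM for C1qb, and 1138, 1162 and 1175 CPM for C1qc. C1qa overlapped vehicle there, and C1qb and C1qc did not. C1qb fell by 0.13 (SE 0.047, adjusted p = 0.0209) and C1qc by 0.20 (SE 0.048, adjusted p = 0.000679), while C1qa, at -0.12 (SE 0.049), had an adjusted p of 0.0526. The C1qb call was lost without vehicle replicate 2 (adjusted p = 0.127) or knockout-labelled replicate 1 (0.0787). C1qa passed with each other scaling, with DESeq2 and on FPKM (adjusted p = 0.0108 to 0.0414). It did not pass with a filter of 10 counts in 6 libraries (0.0669) or with the compared groups alone (0.0508). Nor did C1qa pass without vehicle replicate 1 (0.0991) or 2 (0.223), or without knockout-labelled replicate 1 (0.0632) or 3 (0.237). Without vehicle replicate 3 (0.0106) or knockout-labelled replicate 2 (0.0390) it passed.

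With hemin, C1qa measured 1083, 1122 and 1112 CPM, C1qb 1246, 1322 and 1292 CPM, and C1qc 1167, 1262 and 1157 CPM. Only C1qc lay wholly below vehicle. It fell by 0.16 (SE 0.048, adjusted p = 0.0175), a call lost without vehicle replicate 3 (adjusted p = 0.150), hemin replicate 1 (0.0698) or hemin replicate 3 (0.103). C1qa, at -0.06 (95% interval -0.16 to 0.04), and C1qb, at -0.10 (95% interval -0.19 to -0.0032), did not pass. The 4-OI libraries were lower than the hemin libraries by 0.89 for C1qa, 0.41 for C1qb and 0.42 for C1qc on the log2 scale (adjusted p = 2.26e-17, 3.52e-09 and 3.18e-09).

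C3 rose in the knockout-labelled libraries and with hemin and fell with 4-OI. It measured 38.7, 42.4 and 44.8 CPM with vehicle, 63.8, 59.0 and 55.3 in the knockout-labelled libraries, 27.8, 29.5 and 29.6 with 4-OI and 54.1, 62.4 and 59.6 with hemin. Vehicle lay between, with no overlap with any of the other groups, and the knockout-labelled and hemin libraries overlapped. The change was 1.42-fold in the knockout-labelled libraries (log2 0.51, SE 0.067, adjusted p = 8.06e-08) and 1.41-fold with hemin (log2 0.49, SE 0.069, adjusted p = 9.58e-07). With 4-OI it fell to 0.693 of vehicle (log2 -0.53, SE 0.075, adjusted p = 1.80e-07), and 4-OI was at 0.492 of hemin (adjusted p = 3.21e-14). On log2(FPKM + 0.1) or log2(FPKM + 1) the rises with hemin and in the knockout-labelled libraries were smaller. With hemin the rise was down to 0.29 with an adjusted p of 0.0176 (limma-trend). In the knockout-labelled libraries it was down to 0.37 with an adjusted p of 0.00145 (limma-trend).

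The deposited mean transcript length of C3 differed as well, with 4714 to 4844 bases with vehicle, 4955 to 5042 in the knockout-labelled libraries, 4560 to 4785 with 4-OI and 5060 to 5139 with hemin. It weights the transcripts of a gene by their estimated shares, and it enters FPKM but not CPM. Stromal cells also make C3, and the stromal marker sum was 10286 to 11529 CPM in the knockout-labelled libraries against 1705 to 2101 with vehicle. Their part in the C3 value of that group was not tested. The stromal sum was 1555 to 2033 CPM with hemin, and its part in the C3 value there was not tested either.

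Cfp encodes properdin. It measured 417.0, 454.9 and 448.0 CPM with vehicle, 482.9, 491.8 and 506.2 in the knockout-labelled libraries, 429.9, 398.6 and 391.1 with 4-OI and 430.8, 474.5 and 473.9 with hemin. The knockout-labelled libraries were above all others, and both treated groups overlapped vehicle. Cfp rose by 0.17 in the knockout-labelled libraries (SE 0.049, adjusted p = 0.00668), a call lost without vehicle replicate 1 (0.12, adjusted p = 0.0692). With 4-OI the difference was -0.11 (95% interval -0.21 to -0.01, adjusted p = 0.0560), and it passed with upper-quartile scaling (adjusted p = 0.0149) and on log2(FPKM + 1) (-0.25, adjusted p = 0.000986). With hemin it was 0.06 (95% interval -0.04 to 0.17). All 4-OI libraries were below all hemin libraries (-0.18, SE 0.050, adjusted p = 0.0040).

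Of 13 other Fc receptor genes 6 were tested, with 1 higher and 1 lower in the knockout-labelled libraries, 1 and 3 with 4-OI, and 1 and 3 with hemin. Over all genes, 39.8%, 50.4% and 17.2% were called in these comparisons, in either direction. Fcrls, an Fc receptor-like scavenger receptor, fell in all 3, by 0.34, 1.36 and 0.54 on the log2 scale in that order (SE 0.057, 0.062 and 0.059). Its mean was 132.4 ± 5.32 CPM with vehicle and 52.0 ± 4.22 CPM with 4-OI (SD, n = 3). Fcgrt, the neonatal Fc receptor that recycles IgG, rose by 0.19 in the knockout-labelled libraries and fell by 0.34 with 4-OI and 0.35 with hemin. With DESeq2 or on log2(FPKM + 1), 0 of these genes rose in the knockout-labelled libraries, and at edgeR's unadjusted p under 0.05 1 did. Trim21, the cytosolic antibody receptor, fell by 0.72 with 4-OI and 0.25 with hemin, and Fcrl1 rose by 1.63 and 0.50. Between the treatments 1 was higher and 2 lower with 4-OI, where 42.3% of all genes were called. The list's median was 0.10, -0.27, -0.30 and -0.0082 in the 4 comparisons, against -0.0060 to 0.0015 for all genes.

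Of the 25 genes of ITAM and ITIM signalling, all tested, 2 were higher and 15 lower in the knockout-labelled libraries (median -0.16), where 23.5% of all genes were higher and 16.3% lower. The lower ones included Card9, an adaptor downstream of Syk, at -0.61 (SE 0.073), and Plcg2, a phospholipase, at -0.37 (SE 0.048). The kinase gene Src rose by 1.88 (SE 0.14) and Dok1, an adaptor, by 0.50 (SE 0.062). The stromal marker sum was 10286 to 11529 CPM in these libraries against 1705 to 2101 with vehicle, and its part in the signalling values was not tested. With 4-OI 7 were higher and 5 lower (median 0.02), against 25.4% and 25% of all genes, and on log2(FPKM + 1) 5 were higher and 11 lower. Syk, the kinase that binds phosphorylated ITAMs, rose by 0.44 (SE 0.046) and Tyrobp, the ITAM chain DAP12, rose by 0.51 (SE 0.048). With hemin 7 were higher and 2 lower (median 0.08), against 9.48% and 7.74% of all genes, or 4 and 3 on log2(FPKM + 1). Fgr, a Src-family kinase, rose by 1.21 (SE 0.16) and Vav3 fell by 0.35 (SE 0.055). Between 4-OI and hemin 8 were higher and 8 lower (median -0.0067), or 7 and 12 on log2(FPKM + 1), against 20.6% and 21.7% of all genes. Ptpn6, a phosphatase that ITIMs recruit, was lower with 4-OI by 0.37.

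Receptors for complement were lower or level in the knockout-labelled libraries, where 0 rose and 6 of the 11 tested (of 14) fell (median -0.13, edgeR). Over all genes 23.5% were higher and 16.3% lower there. By unadjusted p under 0.05 the counts were 0 and 7, and by DESeq2 0 and 6. Calreticulin, Calr, which binds C1q, fell by 0.22 (SE 0.048), and the anaphylatoxin receptors C5ar1 and C3ar1 fell by 0.21 and 0.17. With 4-OI 5 were higher and 2 lower (median 0.07), against 25.4% and 25% of all genes, or 3 and 3 on log2(FPKM + 1). Itgb2, the integrin chain shared by complement receptors 3 and 4, rose from 710.6 ± 34.9 to 1474 ± 74.0 CPM (SD, n = 3, log2 fold change 1.05, adjusted p = 9.01e-20). Its partner Itgax rose by 0.83 (SE 0.092), and Cd93, once described as a C1q receptor, fell by 0.61 (SE 0.045). With hemin 3 were higher and 1 lower (median 0.10), against 9.48% and 7.74% of all genes, with Itgb2 at 0.34, Itgam at 0.19 and Cd93 at -0.40. Between the treatments 2 were higher and 2 lower (median 0.02), against 20.6% and 21.7% of all genes, with Itgb2 higher by 0.72 and C3ar1 lower by 0.43 with 4-OI.

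Other complement components were few in these cells, with 8 of 23 tested. In the knockout-labelled libraries 5 were higher and 0 lower (median 0.51), and of the 6 tested regulators of 12, 4 were higher and 0 lower (median 0.73), where 23.5% of all genes were higher and 16.3% lower. By edgeR's unadjusted p under 0.05, by DESeq2 and by limma on FPKM these counts were again 5 and 0, and 4 and 0. Masp1, a lectin pathway protease, measured 3.22 ± 0.276 CPM with vehicle and 21.7 ± 3.31 CPM there (SD, n = 3). Serping1, the C1 inhibitor, measured 2.54 ± 0.911 CPM with vehicle and 19.4 ± 1.91 CPM there (log2 fold change 2.95, SE 0.15). C1s1, the protease that C1q activates through C1r, stood at 0.332 ± 0.178 and 4.90 ± 0.760 CPM. All 8 tested stromal markers were higher in the same libraries (median 2.36), and their part in these values was not tested.

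With 4-OI, 1 component and 1 regulator rose, the component being Masp1, by 0.74, and 1 of each fell, the ficolin gene Fcna by 0.50 and Cd55, at 0.235 CPM, which fell by 1.80. With hemin, C1ra rose by 0.28 and Cfb, factor B of the alternative pathway, by 0.62 (SE 0.18, adjusted p = 0.0373), and 0 components fell by edgeR, by its unadjusted p or by DESeq2, and 1 by limma on FPKM. Of the regulators 0 passed with hemin by edgeR, DESeq2 or limma, and 1 was higher at an unadjusted p under 0.05. The shares of all genes were 25.4% higher and 25% lower with 4-OI, and 9.48% and 7.74% with hemin. The list medians were 0.13 and 0.03 with 4-OI and 0.08 and 0.06 with hemin, components first. Between 4-OI and hemin, 1 component was higher, 2 were lower (median 0.13), and 1 regulator was higher (list median 0.06), against 20.6% and 21.7% of all genes.

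**Figure D4:**
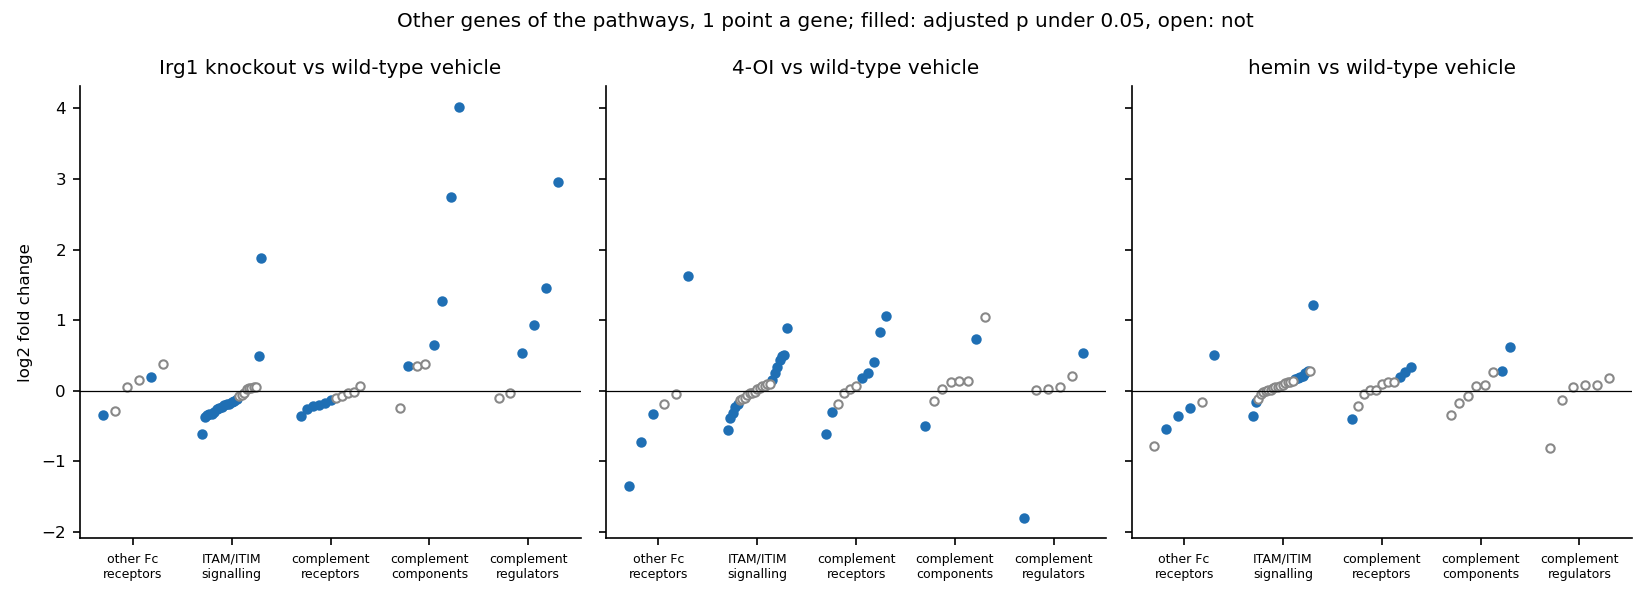
Log2 fold changes (vertical axis) of the tested genes of 5 pathway lists in the 3 comparisons with wild-type vehicle; 1 point is a gene, filled at an adjusted p under 0.05 and open otherwise. In the knockout-labelled libraries 15 of 25 signalling genes lie lower and called, and 5 of 8 complement components lie higher and called.

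The genes whose pattern over the 12 libraries was most like each member were sought among the 9580 genes averaging 5 CPM or more, by Pearson's r of log2(CPM + 0.5). The libraries share their groups, so these values describe the pattern of 4 group means. Fcgr2b was most like Stard8 (r = 0.992), H2-T24 (0.991) and the interferon-induced gene Isg15 (0.991). Isg15 had a mean of 25.1 CPM with vehicle, 37.0 in the knockout-labelled libraries, 5.00 with 4-OI and 14.3 with hemin, in the same order of groups as Fcgr2b. Fcgr3 was most like Pank3 (0.990) and the lipid droplet protein gene Plin2 (0.985).

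C1qa was most like Tgm2 (r = 0.990) and the mitosis genes Prc1 (0.989) and Kif2c (0.988). C1qb was most like the mitosis gene Incenp (0.991), Lfng (0.988) and the DNA repair gene Rad51ap1 (0.984). C1qc was most like the scavenger receptor gene Stab1 (0.986), the condensin gene Ncapd3 (0.984) and Cotl1 (0.980). Among themselves the C1q genes had r = 0.969 for C1qa with C1qb, 0.969 for C1qb with C1qc and 0.927 for C1qa with C1qc.

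The remaining genes had looser matches. C3 was most like Atrnl1 (r = 0.971), S1pr1 (0.971) and the matrix protease gene Mmp14 (0.967). Fcgr1 was most like Hs1bp3 (0.953), Ercc5 (0.953) and Pcp4l1 (0.951), and Fcer1g like Atf6b (0.946), Zfp385a (0.931) and Gnai2 (0.930). Cfp was most like the metal transporter gene Slc11a2 (0.939), Cd14 (0.924) and Dusp16 (0.910). Fcgr4 was most like the chemokine receptor gene Ccr1 (0.934), Pik3ca (0.906) and Tmem200b (0.903).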

How the data were processed

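RNA of 12 mouse macrophage libraries was measured by sequencing. Each library has 1 deposited table. The authors' tools were RSEM, Bowtie2, HISAT2 and StringTie on GRCm39 (mm39), per the submitters' processing notes, and versions are not given in the sources used here. Per the file headers the deposited values are expected counts (90.62 to 92.03% whole) and FPKM, and a gene missing from a table was taken as 0. Expected counts were rounded and tested with edgeR 4.0.16 in R 4.3.3. Steps were filterByExpr (12148 genes left), TMM scaling, 1 robust quasi-likelihood fit of all 12 libraries, and Benjamini-Hochberg adjustment over all genes tested. Totals of 9405112 to 22390882 counts and 3 libraries a group set the precision; the biological coefficient of variation was 4.71%. Standard errors come from the F statistic and 95% intervals from the fit's degrees of freedom. The chi-square of replicate pairs was 2.40 to 4.88 times its degrees of freedom, so no pair differed by counting noise alone. It cannot tell separate mice or cultures from separate libraries of 1 culture.

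The members and gene lists were chosen with earlier results of these data known. Named were the members, Acod1, up to 4 genes per pathway list and comparison in order of adjusted p, summed levels and genes at 0 of marker lists, and the 3 genes most like each member. Mmp8, S100a8, Cd79b, Kdr, Cdh5, Pecam1 and Emcn were named after their values were seen. Alternatives were other scalings, DESeq2 1.42.0, limma 3.58.1 on log2 FPKM, other filters, a replicate block, the compared groups alone, counts in place of FPKM in the ratios, and each library left out. Code was tested on simulated data. Sequences are from RefSeq (GRCm38.p6) and, for coding stretches, the GRCm38 annotation; 9 of 10 members matched the promoter table. Some genes that this rule names are not reported here.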

Additional observations from a re-analysis of the deposited data

How the results depend on the processing

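Over 9 alternative settings a comparison, the number of the 10 genes called was 6 to 7 for the knockout-labelled libraries, 8 to 9 for 4-OI, 5 to 6 for hemin and 8 to 10 for 4-OI against hemin. With 1 library left out the ranges were 5 to 7, 8 to 9, 4 to 6 and 8 to 10. Fold changes of uncalled genes near 0 changed sign. Fcgr1 in the knockout-labelled libraries was -0.0036 with RLE factors, -0.0040 with DESeq2, -0.0030 on log2(FPKM + 1) and on log2(FPKM + 0.1), and -0.0047 with no filter, and -0.023 to 0.063 with 1 library left out. Fcer1g with 4-OI was -0.0082 with upper-quartile factors, -0.12 on both FPKM scales, and -0.0010 to 0.073 with 1 library left out. FPKM divides by library totals without TMM factors; beyond that the cause was not tested. On expected counts in place of FPKM the ratio of activating receptors to Fcgr2b was 3.10 with vehicle, 2.53 in the knockout-labelled libraries, 7.54 with 4-OI and 3.18 with hemin. The labels do not say whether the replicate numbers pair the libraries. Over all genes tested, same-numbered libraries correlated at -0.0787 to 0.0666 in their deviations from group means. A value over all genes cannot exclude pairing for some of them, and Fcer1g was lowest in replicate 1 of every group. A replicate block gave 4879, 6156, 2159 and 5181 genes called, and 7, 8, 6 and 9 of the 10. It added C1qa in the knockout-labelled libraries (adjusted p = 0.0467) and Fcer1g with hemin (0.0253) and between the treatments (0.0330), and lost none. Fcgr4 and C3 had the fewest counts and, with Fcer1g, the widest intervals.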
